A study of Canis lupus familiaris with 5 samples.

Results

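Smooth muscle and mural nuclei of the canine cephalic vein were chosen by their own transcripts and made up 130 of 6868 nuclei in 5 single-nucleus libraries (1.89%). A nucleus entered when it held at least 3 UMIs (unique molecular identifiers, each standing for 1 captured RNA molecule) over MYH11, ACTA2, ACTG2, LMOD1, SYNPO2, NTRK3, ADCY5 and MYOCD, from at least 2 of these 8 genes. That sum also had to exceed the UMIs over LAMA2, SCARA5, SVEP1 and DCN, and those over MYRIP, PTPRB, ALDH1A2 and PALMD, sets of fibroblast and endothelial genes. The chosen nuclei are called mural nuclei here. They numbered 35 of 2705 in the graft, which came from dog 1. Distended vein gave 39 of 2108 (dog 1) and 1 of 241 (dog 2), and control vein gave 37 of 773 (dog 1) and 18 of 1041 (dog 2).

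The graft (1 library) was a vein of dog 1 that had carried carotid flow as a bypass for 24 h. Distended vein (2 libraries, dogs 1 and 2) was taken after the surgical harvest, in which saline with papaverine and bivalirudin was injected against a closed outflow; harvest and distension took about 30 minutes. Control vein (2 libraries, the same dogs) was left untouched until it was taken. The dogs were mongrels, all 5 libraries were labelled male, and nuclei were isolated from snap-frozen tissue. The graft had also been through harvest and distension, so that graft against control holds both steps. Control and distended libraries come from the same animals, and the sole graft shares its animal with 1 library of each other group.

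Vascular smooth muscle contracts through a specialised set of actin and myosin proteins whose genes are switched on by serum response factor together with its coactivator myocardin. After injury or a rise in pressure these cells are known to lower contractile genes and to make more matrix, and such cells contribute to the thickened intima of failing vein grafts. Pericytes, the mural cells of small vessels, are usually told from smooth muscle by RGS5, KCNJ8, ABCC9 and HIGD1B.

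The libraries differed in depth. Mural nuclei of the graft held a median of 2420 UMIs (range 671 to 7238), against 562 and 429 in distended dogs 1 and 2 and 569 and 311 in control dogs 1 and 2, counted without 4 locus-named features that dominated the libraries. Those features took 3.63% of the graft's mural UMIs, 22.6% and 15.0% of those in distended vein, and 27.5% and 56.6% of those in control vein. The 5 sums over mural nuclei held 95074 UMIs in the graft, 27036 and 429 in distended dogs 1 and 2, and 24138 and 6692 in control dogs 1 and 2. The graft shared 1 cell barcode with distended dog 1 and 3 with control dog 1, distended dog 1 shared 1 with control dog 2, and the other pairs of libraries shared 0.

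The genes that chose the nuclei are described first, without a test. MYH11, the smooth muscle myosin heavy chain, had 37 UMIs in 16 of 35 graft nuclei, 330 in 38 of 39 distended dog 1 nuclei, and 304 in 34 of 37 and 98 in 15 of 18 control nuclei of dogs 1 and 2. Its normalised level (TMM-scaled UMIs per 10000) was 5.59 in the graft, 114 in distended dog 1, and 121 and 114 in the controls. By level, the graft nuclei that met the rule held less MYH11 than those of the 3 other libraries. The rule let deeper nuclei enter at a lower share of its genes, and its part in this difference was not tested. ACTA2, smooth muscle alpha-actin, stood at 18.9 in the graft, 29.4 in distended dog 1, and 37.3 and 27.8 in the controls. ACTG2, the gamma smooth muscle actin, stood at 12.7 in the graft, 10.7 in distended dog 1, and 7.94 and 4.64 in the controls. The order of ACTG2 turned with the scaling: by UMIs per 10000, without TMM, it was 8.84 in the graft, 11.5 in distended dog 1, and 8.29 and 5.98 in the controls.

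LMOD1, an actin filament nucleator, had a level of 3.02 in the graft, 19.7 in distended dog 1, and 21.4 and 11.6 in the controls. SYNPO2 (an actin-bundling protein), NTRK3 (the neurotrophin 3 receptor) and ADCY5 (an adenylyl cyclase) were likewise lowest in the graft. MYOCD, myocardin itself, went the other way, with 72 UMIs in 21 of 35 graft nuclei, 3 UMIs in distended dog 1, and 0 and 1 in control dogs 1 and 2. A MYOCD UMI was found in 60.0% of the mural nuclei of the graft, against 1.27% of its other nuclei. Since MYOCD helps to choose the nuclei, the rule itself raises this contrast. The rule without MYOCD left 29 graft nuclei and the same number elsewhere.

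**Figure D1:**
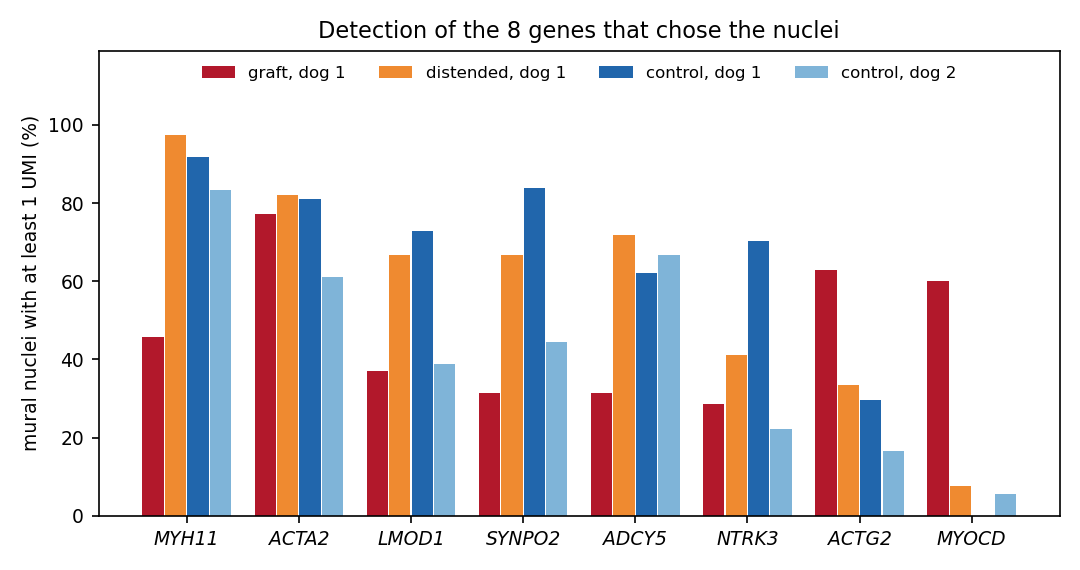
Percentage of mural nuclei with at least 1 UMI of each of the 8 genes that chose them, for the graft, distended dog 1 and control dogs 1 and 2 (the single nucleus of distended dog 2 is not drawn). MYH11 was found in 45.7% of graft nuclei against 97.4% in distended dog 1, and MYOCD in 60.0% of graft nuclei against 7.69%. These percentages were read at a median of 2420 UMIs in the graft and 562 in distended dog 1, so they are not at equal depth.

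The share of the 8 genes in a nucleus is bounded by the rule itself. At the median depth 3 UMIs are 0.124% of a mural nucleus in the graft, 0.534% and 0.699% in distended dogs 1 and 2, and 0.527% and 0.966% in control dogs 1 and 2, so that deeper nuclei enter at a lower share. The sum took a median of 0.405% of a nucleus's UMIs in the graft, 2.47% in distended dog 1, 1.86% in the nucleus of distended dog 2, and 2.81% and 3.04% in control dogs 1 and 2. In the graft 5 of the 35 nuclei stood at the limit of 3 UMIs and 10 had just 2 of the genes. In distended dog 1 and control dogs 1 and 2 the nuclei at 3 UMIs numbered 1, 2 and 2. Just outside, 4 graft nuclei had 2 UMIs from 2 genes, and 4 more were turned away by their endothelial UMIs, while 14 nuclei of distended dog 1 were turned away by their fibroblast UMIs.

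The share of mural nuclei was 1.29% in the graft (95% exact interval 0.903 to 1.79). It was 1.85% (1.32 to 2.52) and 0.415% (0.0105 to 2.29) in distended dogs 1 and 2, and 4.79% (3.39 to 6.54) and 1.73% (1.03 to 2.72) in control dogs 1 and 2. The graft was below each control, by 1.96 points against their mean. The mean of distended vein was 2.13 points below that of control vein, against an SD of 2.16 points between the controls, and distended dog 1 lay above control dog 2. Within dog 1 the graft was 3.49 points and distended vein 2.94 points below control vein, and within dog 2 distended vein was 1.31 points below. Without the pairing by dog the distended difference gave an exact two-sided permutation p of 0.667 (n = 2 each, smallest possible 0.333), and the graft has 1 library and no test. Without control dog 1 the graft difference was -0.435 points and the distended one -0.597; without control dog 2 they were -3.49 and -3.65. Without distended dog 2 the distended difference was -1.41. Fewer mural nuclei captured and less mural RNA per nucleus cannot be told apart by a rule on UMIs, and the intervals cover counting error only.

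Equal depth widened the gap of the graft. With each nucleus thinned to 200 UMIs outside the dominant features, 3 of 2704 graft nuclei met the rule (0.111%, interval 0.0229 to 0.324). In distended dog 1 it was 31 of 2047 (1.51%), and in distended dog 2 it was 0 of 239, which allows a share of up to 1.26% by a floor of 3 counts and 1.53% by the exact interval. Control dogs 1 and 2 kept 30 of 657 (4.57%) and 11 of 749 (1.47%). Thinning left out 1 graft nucleus, 61 and 2 distended nuclei and 116 and 292 control nuclei as too shallow.

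**Figure D2:**
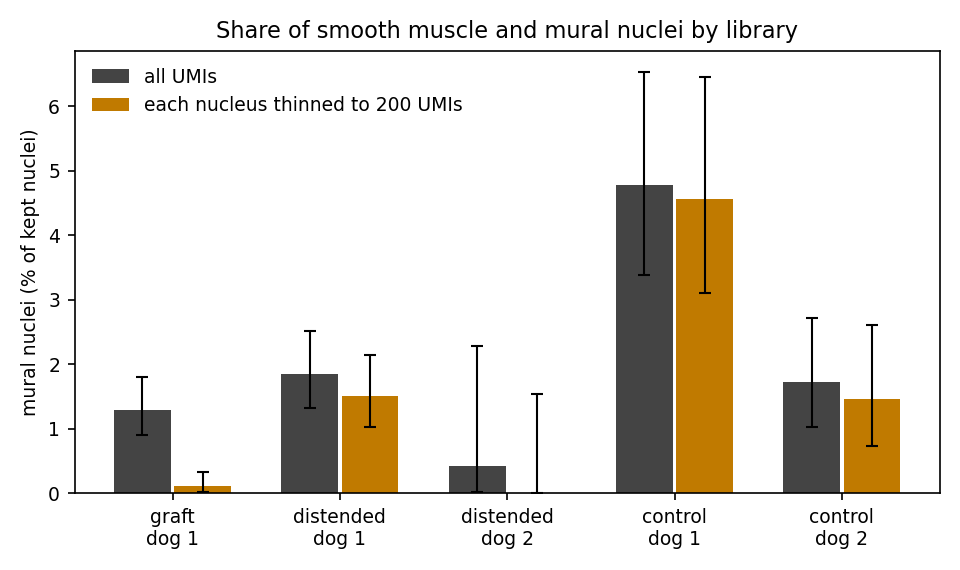
Mural nuclei as a percentage of kept nuclei in the 5 libraries, from all UMIs (dark bars) and after thinning each nucleus to 200 UMIs (light bars), with exact 95% intervals. The graft falls to 0.111% on thinning, while control dog 1 stays at 4.57%.

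Other contractile genes, which the rule did not use, marked the same nuclei. The 37 contractile genes found in the files held 190 UMIs per 10000 in mural nuclei of the graft, against 56.1 in its other nuclei. Mural nuclei of distended dog 1 held 428 (65.0 in the others), and those of control dogs 1 and 2 held 446 and 378 (83.2 and 86.8 in the others). Since genes that go with the rule's genes are carried along by it, these values are a description. Of 1087 genes with a symbol and at least 30 mural UMIs, 122 had at least 4 mural UMIs in each of the graft, distended dog 1 and control dog 1 and were at least 2 times higher in mural than in other nuclei of all 3; 33 of them were at least 10 times higher.

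The genes that stood furthest apart were the following. SPEG, a striated and smooth muscle kinase, was 369 times higher in mural than in other nuclei of the graft, 707 times in distended dog 1 and 257 times in control dog 1, with 1 UMI added to each count. DES, the intermediate filament desmin, was 195, 308 and 257 times higher in the same libraries. KCND3, a voltage-gated potassium channel, was 208, 272 and 237 times higher. Other nuclei held 0 UMIs of SPEG in distended dog 1 and control dog 1, and 0 of DES and KCND3 in control dog 1. Those ratios rest on the added UMI and on the size of the sums. Among the next with at least 4 mural UMIs in each of these libraries were DTNA (a dystrobrevin of the dystrophin complex), TNC (the matrix glycoprotein tenascin C), TPM2 (beta-tropomyosin), AKAP6 (an anchor for protein kinase A), SCUBE3, KCNMB2 (a subunit of the large-conductance calcium-activated potassium channel), FBN2 (fibrillin 2), ZNF804A and GUCY1A2 (a subunit of the nitric oxide receptor). Their lowest ratio among the 3 libraries ran down to 31.4 for GUCY1A2.

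The pericyte list gave mixed values. Its 15 genes in the files held 7.15 UMIs per 10000 in mural nuclei of the graft and 7.42 in the other graft nuclei. They held 22.2 in distended dog 1 (18.05 in the others), and 21.1 and 23.9 in control dogs 1 and 2 (6.99 and 8.73 in the others). CSPG4, a proteoglycan of pericytes and muscle, had 8 UMIs in the graft, 11 in distended dog 1, and 6 and 5 in the controls, at least 20.5 times its share in other nuclei of the graft, distended dog 1 and control dog 1. MCAM, an adhesion molecule of mural and endothelial cells, had 4, 12, 11 and 4 UMIs in the same order and was at least 18.3 times higher. EBF1, a transcription factor, was found in 17 of 35 graft mural nuclei and in 63.6% of the other graft nuclei. RGS5, KCNJ8, HIGD1B, COX4I2, NDUFA4L2 and VTN had 0 UMIs in the 130 nuclei, and ABCC9 had 3. NOTCH3, a receptor of mural cells, had 1 UMI in the graft, 8 and 0 in distended dogs 1 and 2, and 2 and 3 in the controls. PDGFRB, the receptor that recruits mural cells, had 0 in the graft, 7 and 1 in distended vein, and 5 and 3 in control vein. The nuclei thus carried contractile genes, and of the pericyte genes some, but none of RGS5, KCNJ8 or HIGD1B. In the other graft nuclei these genes were rare too, with 3, 6 and 13 UMIs. Their absence therefore cannot tell smooth muscle from pericytes here.

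Markers of other cell types differed between the libraries within these nuclei. In the graft, 25 of the 35 mural nuclei held a UMI of the macrophage, neutrophil or lymphocyte lists, against 5 of 39 and 0 of 1 in distended vein and 4 of 37 and 2 of 18 in control vein. The 8 neutrophil genes, 7 of them detected and MMP9 at 0, held 12.2 UMIs per 10000 in graft mural nuclei and 3.64 in the other graft nuclei. They held 0 in distended dog 1, and 0.829 and 2.99 in control dogs 1 and 2. The 8 macrophage genes, 7 of them detected and TIMD4 at 0, held 8.73 in graft mural nuclei and 4.03 in the others, against 1.85 in distended dog 1 and 2.07 and 0 in the controls.

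Such transcripts were spread over the graft as a whole. A macrophage marker UMI was found in 60.0% of mural and 56.1% of other graft nuclei, and a neutrophil marker UMI in 54.3% and 44.4%. A few nuclei near the limit of the rule carried much of this. The 3 graft nuclei with most neutrophil UMIs, with 3 to 5 UMIs of the rule's genes, held 66 of 116, and the other 32 held 6.67 per 10000. Endothelial markers (9 of 9 detected) held 12.8 per 10000 in graft mural nuclei, where 6 nuclei with 3 to 5 rule UMIs held 87 of the 122 and the other 29 held 5.34 per 10000. They held 41.3 in the other graft nuclei, against 2.22 in distended dog 1, where 8 of the 9 were at 0, and 4.97 and 2.99 in the controls. The part of these transcripts in the results was not tested, and values for the 10 mural graft nuclei without a leukocyte UMI are given beside results that move with them.

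The comparison of graft with control mural nuclei asked what 24 h as an arterial bypass went with in the muscle of the vein. Counts were summed per library over mural nuclei and tested with edgeR across 975 genes, besides the genes of the rule. The graft was higher in 57 genes (5.85% of those tested) and lower in 24 (2.46%) at an edgeR adjusted p under 0.05. A gene could pass the expression filter through a single library, and the graft held the most UMIs. Of the 57 genes, 16 had 0 UMIs in both controls, and of the 24, 5 had 0 in the graft. The balance of higher and lower calls depends on this. The fit used the 4 libraries with at least 15 mural nuclei. The 2 controls alone thus give the spread, pooled over genes, and the lone graft is assumed to vary like them. A fit that also took the single nucleus of distended dog 2 called 0 genes, with a lowest adjusted p of 0.112 in edgeR and 94 genes at an unadjusted p under 0.05, and DESeq2 on the 4 libraries called 7. With the dog as a replicate block, which needs that fit of 5 libraries, edgeR called 0, with 11 at an unadjusted p under 0.05. Scaled without TMM, by library totals, that fit of 5 libraries called 77.

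The way libraries were scaled moved the balance of these calls. With DESeq2's size factors 81 were higher and 18 lower, with library totals 41 and 30, and with the dominant features kept 49 and 32. The median log2 fold change of all genes tested was -0.10 as reported, 0.07 with size factors, -0.43 with library totals and 0.18 with the dominant features kept, and log2 changes below are to be read against it.

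Among the genes that rose in the graft, TNC had the highest level, and 3 matrix genes rose with it. TNC, which is low in resting vessel wall and appears on injury, had 1951 UMIs in the graft, against 81 and 13 in control dogs 1 and 2. Its normalised level was 295 in the graft, against 32.2 and 15.1 in the controls, a log2 fold change of 3.61 (SE 0.69, edgeR adjusted p 0.000203). A TNC UMI was found in 34 of 35 graft nuclei, with a median of 24 UMIs and a maximum of 216, against 28 of 37 and 6 of 18 control nuclei. The graft therefore stood above both controls in level; the shares of nuclei with a UMI were read at a median of 2420 UMIs in the graft, against 569 and 311, and are not comparable. Among the other graft nuclei 320 of 2670 held a TNC UMI, at a level of 1.54. In the 10 graft nuclei without a leukocyte UMI TNC stood at 329 UMIs per 10000, against 173 in the 25 with one.

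COL12A1, a collagen that sits on the surface of fibrils, had 383 UMIs in 25 of 35 graft nuclei, against 4 and 0 UMIs in the controls (log2 fold change 5.69, SE 1.26, edgeR adjusted p 0.000851). COL5A2, a fibrillar collagen chain, had 277 against 4 and 5 (log2 fold change 3.70) and was found in 28 of 35 graft nuclei. VCAN, the proteoglycan versican, had 327 against 5 and 3 (log2 fold change 4.27) and was found in 32 of 35 graft nuclei. Each of these genes thus had few UMIs in the controls and was present in most nuclei of the graft, which were deeper than those of the controls. COL12A1 was uneven, with a median of 2 UMIs per graft nucleus and a maximum of 107. COL5A2 and VCAN were also in 65.2% and 81.2% of the other graft nuclei. PAPPA, a metalloprotease that cleaves binding proteins of insulin-like growth factors, had 87 against 2 and 0, a ratio of 22.2 (exact 95% interval 5.97 to 186). Intervals of such ratios, here and below, pool the UMIs of a group and cover counting error only.

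The matrix genes moved in both directions. Of 16 tested of the 37 on the matrix list, 3 rose (COL12A1, COL5A2 and VCAN) and 2 fell, beside 5.85% and 2.46% of all genes, with a median log2 fold change of -0.50 beside -0.10 for all genes (-0.21 and -0.09 with genes at 0 UMIs set to their bound or, where both groups had at most 3 UMIs, left out). COL3A1, the type III collagen of the vessel wall, had 3 UMIs in the graft, against 34 and 8 in the controls, a ratio of control to graft of 27.4 (interval 8.76 to 138, edgeR adjusted p 0.0301). ELN, elastin, had 4 against 12 and 10 (log2 fold change -3.56, adjusted p 0.0425). FN1, fibronectin, had 238 UMIs in the graft and 53 and 3 in the controls, and was not called.

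On the list of genes linked to the modulated, synthetic state of smooth muscle, 3 of 7 tested rose (TNC and VCAN among them) and 1 fell (COL3A1), beside 5.85% and 2.46% of all genes, with a median of 1.45. Of its 26 genes 19 were too low to test, among them SPP1, LGALS3 and POSTN. VCAN and COL3A1 are on the matrix list too. No cell cycle gene of the 34 listed was abundant enough to be tested.

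**Figure D3:**
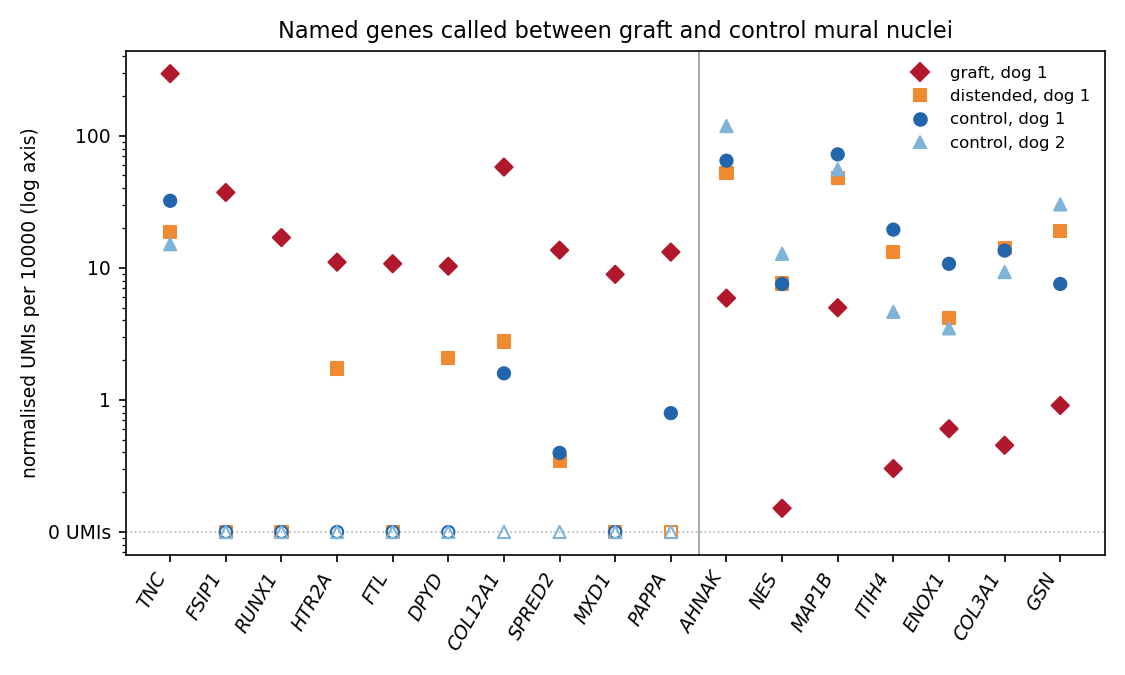
Normalised UMIs per 10000 (log axis) in mural nuclei of the graft, distended dog 1 and control dogs 1 and 2 for the named genes called between graft and control, higher genes on the left of the line and lower ones on the right, with open symbols at 0 UMIs. TNC stands at 295 in the graft and FSIP1 at 37.2, and NES at 0.151.

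Contractile genes outside the rule gave 0 calls of 29 tested, beside 5.85% higher and 2.46% lower of all genes. Their median log2 fold change was -0.44 (-0.39 with bounds as above). The rule's own genes took a median of 0.405% of a nucleus's UMIs in the graft, against 2.81% and 3.04% in the controls. What part the rule had in these contractile levels was not tested. For 13 of the 29 genes the graft lay below both controls and for 7 above both. Over all genes 33.2% lay below both and 37.3% above both. By library totals the graft lay below both controls for 19 and above both for 4, beside 47.9% and 25.6% of all genes. MYLK, the kinase that starts contraction by phosphorylating myosin light chain, had a level of 3.78 in the graft, against 18.7 and 17.4 in the controls. FLNA, a filamin that crosslinks actin, stood at 14.2, against 29.8 and 49.9. CALD1, caldesmon, stood at 16.6, against 41.3 and 30.2. PDLIM5 and ACTN1, proteins of the Z-line and of dense bodies, stood higher in the graft, at 15.9 against 7.15 and 2.32, and at 11.3 against 5.56 and 4.64. With 1 graft library and this spread a log2 change of -2.25 for MYLK had an edgeR adjusted p of 0.243.

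Among 12 tested regulators of the smooth muscle state, 1 was called higher and 0 lower, beside 5.85% and 2.46% of all genes. RUNX1, a runt domain transcription factor, had 112 UMIs in 24 of 35 graft nuclei against 0 UMIs in either control, at least 19.1-fold higher (edgeR adjusted p 0.0003). RUNX1 was widespread in the graft, at a level of 16.9 in mural nuclei and 13.8 in the others, of which 59.0% held a UMI. NOTCH2 had levels of 6.35 in the graft and 0.397 and 2.32 in the controls. MRTFA, a coactivator of serum response factor, stood at 8.62, against 2.38 and 2.32, and MEF2A and ZEB1 differed less; none of these was called.

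Genes of vascular tone were called in either direction. HTR2A, the serotonin receptor through which platelets constrict vessels, had 73 UMIs in 22 of 35 graft nuclei against 0 UMIs in either control, at least 12.4-fold higher (edgeR adjusted p 0.0004). Of the other graft nuclei 0.599% held one. RHOA, the small GTPase that sensitises muscle to calcium, had 59 UMIs against 1 and 2, a ratio of 10.0 (interval 3.28 to 50.1). P2RX1, an ATP-gated channel of smooth muscle, had 1 UMI in the graft, against 7 and 6, a ratio of control to graft of 25.4 (interval 3.82 to 1081). PLCE1, a phospholipase C, fell with 3 UMIs against 14 and 4 (ratio of control to graft 11.7, interval 3.43 to 62.2). In all 2 of 19 tested tone genes rose and 2 fell, beside 5.85% and 2.46% of all genes, with a median of -0.11.

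PRKG1, the cyclic GMP-dependent kinase of relaxation, was abundant, at a level of 118 in the graft and 118 and 103 in the controls. By UMIs per 10000, without TMM, it was lowest in the graft, at 82.1 against 123 and 133; it was not called. Ion channel and calcium store genes had 0 calls of 12 tested, beside 5.85% higher and 2.46% lower of all genes. CACNA1C, the L-type calcium channel, stood at 55.5 in the graft and 45.3 and 19.7 in the controls, and RYR2 at 1.97 against 9.93 and 6.96. Without TMM, CACNA1C in the graft lay between the controls by UMIs per 10000. Of 10 tested growth factor genes 1 rose and 0 fell, beside the same shares of all genes. The gene called was BMPR2, a receptor of bone morphogenetic proteins, with 54 UMIs against 1 and 1 (ratio 13.8, interval 3.64 to 117). PDGFRB, at 0 UMIs in the graft, was not called.

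The remaining genes called higher were of mixed kinds. FSIP1, a protein named for the sperm fibrous sheath, had 246 UMIs in 29 of 35 graft nuclei against 0 UMIs in either control, at least 41.9-fold higher (edgeR adjusted p 0.0003). SPRED2, an inhibitor of the Ras pathway, had 90 against 1 and 0 (ratio 46.0, interval 8.05 to 1836). Both were also widespread in the other graft nuclei, at 50.7% and 57.8% of them. FTL, the ferritin light chain, had 71 UMIs in 16 nuclei, DPYD, an enzyme of pyrimidine breakdown, 68 in 15, and MXD1, a partner of MAX that opposes MYC, 59 in 14; each had 0 in both controls. They were at least 12.1-, 11.6- and 10.0-fold higher. A single graft nucleus held 31 of the FTL UMIs and 12 of the MXD1 UMIs. That nucleus had 3 UMIs of the rule's genes and 34 of the leukocyte lists.

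Some of these genes were lower in graft nuclei without leukocyte transcripts. FTL stood at 1.01 UMIs per 10000 in the mural graft nuclei without a leukocyte UMI and 9.16 in those with one, and MXD1 at 1.52 and 7.43. The same held for CXCL8, a neutrophil chemokine (1.01 and 8.50), and NCKAP1L, a cytoskeletal protein of blood cells (1.01 and 7.30), both called higher. TNC, COL12A1, HTR2A and RUNX1 stood higher without such a UMI, at 329, 71.4, 13.2 and 15.2 against 173, 32.1, 6.24 and 10.9 with one. With nuclei holding a leukocyte UMI left out, 25 genes were higher and 12 lower of 713 tested, and 32 of the 81 genes were called again; FTL, DPYD and MXD1 were then too low to test.

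The genes called lower were named by their p. AHNAK, a giant scaffold protein, had 39 UMIs in the graft, against 163 and 102 in the controls, and levels of 5.90 against 64.7 and 118 (log2 fold change -3.94, SE 0.99, edgeR adjusted p 0.00379). The other graft nuclei stood at 2.90 and the other control nuclei at 71.5 and 145. NES, the intermediate filament nestin, had 1 UMI against 19 and 11 (ratio of control to graft 58.7, interval 9.76 to 2395). MAP1B, a microtubule protein, had 33 against 182 and 48 (log2 fold change -3.68). ITIH4, a heavy chain of the inter-alpha-trypsin inhibitor family, had 2 against 49 and 4 (ratio of control to graft 51.9, interval 13.7 to 439), ENOX1 4 against 27 and 3, and GSN, the actin-severing gelsolin, 6 against 19 and 26. MICAL3, ID4 and SCUBE3 were next by the same rule, at adjusted p of 0.0542, 0.0853 and 0.0853, and were not called. Without distended dog 1 in the fit AHNAK, MAP1B and GSN stood at adjusted p of 0.0765, 0.131 and 0.102, while TNC and COL12A1 stood at 0.00694 and 0.00897.

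Whether a change differed between mural and other nuclei of the same libraries was tested with a term for class by condition. It called 1 gene higher (0.103%) and 0 lower of 975, with 46 at an unadjusted p under 0.05. LMCD1, a LIM domain protein, had 436 UMIs in 29 of 35 graft mural nuclei, against 11 and 0 in the controls. Its level in mural nuclei was 65.9 in the graft, against 4.37 and 0 in control dogs 1 and 2. In the other nuclei it was lower in the graft than in control dog 1, at 5.60 against 23.2 and 4.60. The log2 fold change in mural nuclei exceeded that in the others by 6.03 (SE 1.13, edgeR adjusted p 0.000126). For COL12A1 the difference was 4.37 (adjusted p 0.142) and for MICAL3 -3.55 (0.154); neither was called. The call of LMCD1 was lost when the single nucleus of distended dog 2 entered the fit.

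Of the 57 genes higher in the graft, 33 had a level at least 2 times and 8 at least 10 times that of the other graft nuclei, and 5 lay below them. The share of all 975 tested genes at these limits was not computed. Since genes entered the test by their mural counts, the numbers do not show that the rise was particular to mural nuclei. The 8 included TNC, COL12A1, LMCD1, HTR2A, ST6GALNAC5 and NOL4. At the other end BMPR2 stood at 8.16 in mural and 11.5 in other graft nuclei.

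**Figure D4:**
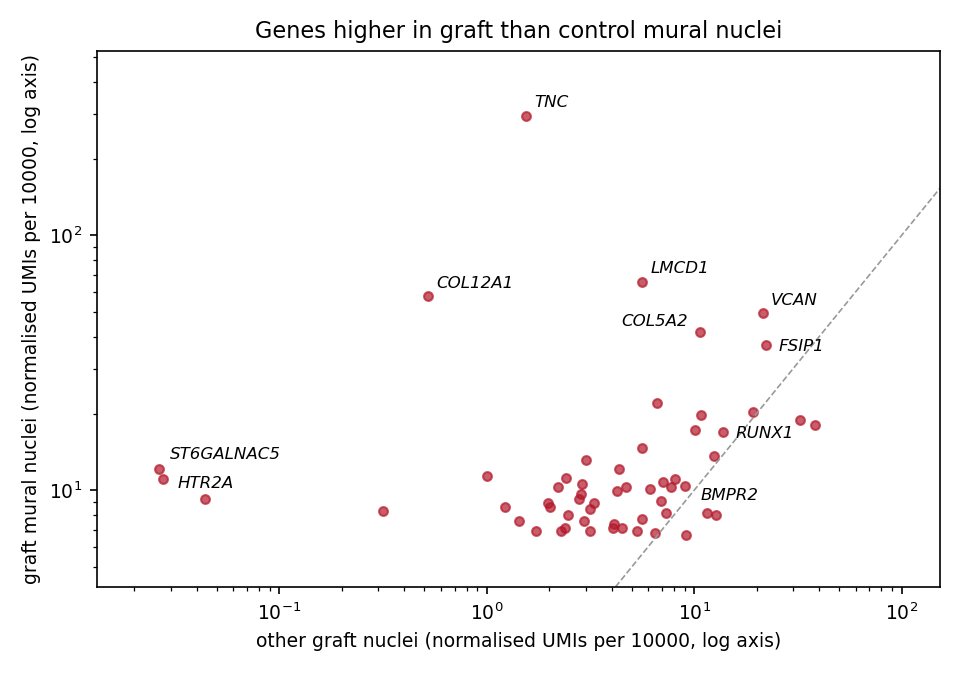
Normalised UMIs per 10000 in graft mural nuclei (vertical, log axis) against the other graft nuclei (horizontal, log axis) for the 57 genes called higher in graft than in control mural nuclei, with the line of equal level. TNC (295 against 1.54) and HTR2A lie far above the line, and BMPR2 (8.16 against 11.5) below it.

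The comparison of distended with control mural nuclei asked what harvest and distension alone went with. It called 0 of 975 genes in edgeR (0% in either direction), with 22 at an unadjusted p under 0.05, and 0 in DESeq2, with 2 at an unadjusted p under 0.05. A single distended library (dog 1, 39 nuclei) enters it. Over all genes 32.4% lay above both controls in distended dog 1 and 23.3% below both.

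The lowest p belonged to an immediate early gene, one of those that cells switch on within minutes of a stimulus. JUN, a subunit of the AP-1 transcription factor, had 86 UMIs in 24 of 39 nuclei of distended dog 1, against 1 and 4 UMIs in control dogs 1 and 2. Its level was 29.7, against 0.397 and 4.64 (log2 fold change 3.98, SE 1.23, edgeR adjusted p 1). JUN was also present in the other nuclei, at 18.5 in distended dog 1 and 3.82 and 17.3 in the controls, and the term for class by condition called 0 genes with distension (22 at an unadjusted p under 0.05 in edgeR). NR4A1, a nuclear receptor, had 27 UMIs against 2 and 5, CCN1, a matricellular ligand of integrins, 29 against 6 and 1, and KLF6 37 against 11 and 3. KLF8, a related factor that is not on the list, had 30 against 3 and 1.

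Over the 14 immediate early genes tested of 35 listed, the median log2 fold change was 0.85, beside -0.01 for all genes (0.90 and -0.04 with bounds as above). Distended dog 1 lay above both controls for 6 of them (JUN, DUSP1, JUNB, CCN1, NR4A1 and KLF6) and below both for 0, beside 32.4% and 23.3% of all genes. For the other 8 the controls lay on both sides. FOS, a partner of JUN in AP-1, had 33 UMIs in distended dog 1, against 0 and 17 in control dogs 1 and 2, at levels of 11.4 against 0 and 19.7. EGR1 stood at 18.3 in distended dog 1, against 2.38 and 20.9 in the controls. For FOS and EGR1 the controls thus stood on either side of distended vein.

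**Figure D5:**
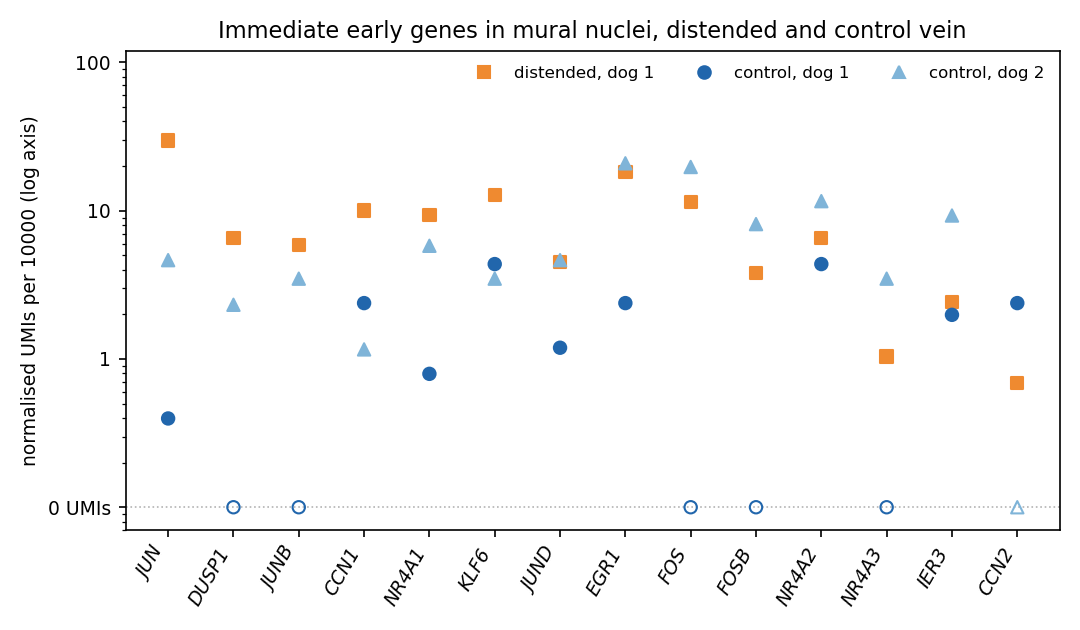
Normalised UMIs per 10000 (log axis) of the 14 immediate early genes tested, in mural nuclei of distended dog 1 and control dogs 1 and 2, ordered by log2 fold change, with open symbols at 0 UMIs. JUN stands at 29.7 in distended dog 1 against 0.397 and 4.64, and control dog 2 lies above or near distended dog 1 for FOS, FOSB and EGR1.

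Contractile genes had 0 calls with distension. Over 29 tested the median log2 fold change was 0.01 (0.13 with bounds), with 11 above both controls and 6 below both, shares near the 32.4% and 23.3% of all genes. MYLK had a level of 29.7 in distended dog 1, against 18.7 and 17.4, and TPM1 of 26.6, against 25.8 and 16.2. TNC stood at 18.7, against 32.2 and 15.1. PDLIM7, a LIM protein of actin stress fibres, had 22 UMIs, against 8 and 2.

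On the lower side, PRUNE2 had 5 UMIs in distended dog 1, against 86 and 5 in the controls, GPC6, a glypican, 4 against 25 and 2, and THBS1, thrombospondin 1, 38 against 72 and 23. By level PRUNE2 stood at 1.73 against 34.1 and 5.80, GPC6 at 1.38 against 9.93 and 2.32, and THBS1 at 13.1 against 28.6 and 26.7. Control dog 2 thus lay nearer to distended vein than control dog 1 did for PRUNE2 and GPC6. The matrix list had a median of 0.27 over 16 genes, with COL6A3 at 24 UMIs against 4 and 3. The regulators had a median of -0.05 over 12, the tone genes of 0.23 over 19, the ion and calcium genes of 0.10 over 12 and the growth factor genes of -0.32 over 10 (-0.55 with bounds). None of these lists had a member called.

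Distended dog 2 gave 1 mural nucleus, with 429 UMIs outside the dominant features. It held 9 UMIs of THBS1, 4 of JUN, 4 of ADCY5, 3 of TNC and 3 of MYH11. No MYOCD, RUNX1, HTR2A or FSIP1 UMI was seen in it.

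Set against distended vein, the graft was higher in 20 genes (2.05%) and lower in 20 (2.05%) by edgeR, each group being 1 library whose spread is taken from the controls. DESeq2 called 3, and the fit with the nucleus of distended dog 2 called 0, with 93 at an unadjusted p under 0.05 in edgeR. The dog as a replicate block gave 0 as well, with 12 at an unadjusted p under 0.05 in edgeR. The split was 27 higher and 10 lower with size factors, and 18 and 32 with library totals. This comparison shares its graft library with the one against control. TNC had 1951 UMIs in the graft and 54 in distended dog 1 (log2 fold change 3.98, SE 0.91, edgeR adjusted p 0.00286). PAPPA had 87 and 0, at least 12.7-fold higher, and RUNX1 112 and 0, at least 16.3-fold higher. CYP7B1, an oxysterol hydroxylase, had 64 and 0, at least 9.33-fold higher, and CXCL8 66 and 0, at least 9.62-fold higher.

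Of the 14 immediate early genes tested, 2 were lower in the graft than in distended vein, beside 2.05% of all genes, and the median log2 fold change was -1.67, beside -0.02 for all genes. JUN had 6 UMIs in the graft and 86 in distended dog 1 (log2 fold change -4.98, SE 1.48, edgeR adjusted p 0.0325). NR4A1 had 1 and 27 (ratio of distended to graft 61.8, interval 10.2 to 2529). KLF8 had 0 and 30, at least 22.9-fold lower. EGR1 had 9 and 53, and was not called (adjusted p 0.107). AHNAK, ITIH4, COL3A1 and NES were lower here too, with 39, 2, 3 and 1 UMIs in the graft and 151, 38, 41 and 22 in distended dog 1, and so were P2RX1, PLCE1 and ANGPT4, an angiopoietin.

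Contractile genes had 0 calls of 29 between graft and distended vein, beside 2.05% higher and 2.05% lower of all genes, with a median of -0.40. Here too graft nuclei entered at a lower share of the rule's genes, and the part of the rule was not tested. MYLK had levels of 3.78 in the graft and 29.7 in distended dog 1, and CACNA1H, a T-type calcium channel, of 0.302 and 5.53. HTR2A had 73 and 5 UMIs, and was not called in this comparison. COL12A1, with 383 and 8, was not called either.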

How the data were processed

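Nuclei from frozen vein were profiled with a 3′ droplet assay. The values the authors deposited are raw UMI counts. Per the submitters' processing notes they came from Cell Ranger 7.0.0; for the genome build, it was not given in the sources used here. A total of 24 features that name no gene (0.588% to 11.7% of UMIs in kept nuclei) and 4 dominant locus-named features were left out of sums. Barcodes with at least 100 detected features were kept. Scrublet in scanpy 1.11.5 marked 30 nuclei (0.437%), too few for a working caller, so that doublets are not resolved.

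The mural nuclei and all gene lists were chosen with earlier results of these data known. Counts were summed per library over mural nuclei and tested in R 4.3.3 by edgeR 4.0.16 (TMM, filterByExpr, quasi-likelihood, two-sided, Benjamini-Hochberg, threshold 0.05). A minimum of 20 mural nuclei per library had been planned. It left 1 library per group and no residual degree of freedom, so the minimum was set to 15 after control dog 2 was seen to hold 18; 1 residual degree of freedom remained. The p-values rest on the spread between the 2 controls, which come from different dogs, pooled over genes. The median prior degrees of freedom in edgeR were infinite. A gene's spread was thus taken from the trend over genes and not from its own control values. DESeq2 1.42.0 was an alternative. The test was checked on simulated counts.

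Named genes had a symbol, at least 30 UMIs in the groups compared and levels that did not overlap between them: the 10 higher and 10 lower of lowest p, besides members of the lists, the 15 genes of highest ratio of mural to other nuclei, and genes named after their values were seen (LMCD1, NCKAP1L, ANGPT4, ST6GALNAC5, NOL4). Folds between groups against 0 counts use a floor of 3 counts over the group. Ratios of mural to other nuclei had 1 UMI added to each count instead. Ratios between groups with 1 to 3 counts have exact 95% intervals on UMIs pooled per group. Those intervals cover counting error only and not the spread between libraries. Same-numbered libraries share a dog, which pairs them. A few genes are not reported here.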

Additional observations from a re-analysis of the deposited data

Results flagged for a closer look

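LMCD1 stood out because its change between graft and control differed between mural and other nuclei of the same libraries, by 6.03 on the log2 scale (SE 1.13, edgeR adjusted p 0.000126). LMCD1 stood at 51.1 UMIs per 10000 in the 10 graft mural nuclei without a leukocyte UMI and 44.5 in the 25 with one.

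The single mural nucleus of distended dog 2, which entered no reported test, held 3 UMIs of TNC, 4 of JUN and 9 of THBS1 among 429. Those correspond to 69.9, 93.2 and 210 UMIs per 10000 in that nucleus, against 20.0, 31.8 and 14.1 in distended dog 1.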

How the results depend on the processing

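Over 60 named genes and comparisons, 729 alternative values were computed. Of these 547 kept direction and side of the threshold, 152 kept direction and lost the call, 29 gained one, and 1 reversed. The 547 include genes that were not called as reported and stayed uncalled. In the fit of every library with TMM, 32 lost the call, and the 28 that kept their side had not been called as reported. The reversed one was THBS1 in distended against control vein, at 0.86 with every library scaled by library totals, where the 9 UMIs of distended dog 2 enter.

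The number of genes called for graft against control was 81 as reported, 0 with no expression filter (7605 genes tested), 7 with DESeq2, 0 with every library, 22 of 134 tested with nuclei thinned to 200 UMIs, 37 without leukocyte-marked nuclei, and 5 with nuclei whose rule genes held at least 1% of UMIs (4 graft nuclei, a limit chosen after seeing the data). For graft against distended it was 40 as reported, and 0, 3, 0, 13 and 19 in the first 5 of those settings. For distended against control it was 0, and 2 with thinned nuclei. The mural-specific term for graft against control called 1, 0 with no filter, 6 with library totals only, 4 with the dominant features kept and 0 with every library. With the dog as a replicate block, possible only with every library, 0 genes were called for graft against control, 0 for graft against distended and 0 for distended against control; with 4 libraries the block leaves no residual degree of freedom. In the fit of every library, TMM gave the nucleus of distended dog 2 a factor of 4.57, beside 0.520 to 0.831 for the others; the cause of the lost calls was not tested.

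Scaling by library totals, the replicate block with every library and the mural-specific term with every library were also chosen after seeing the data.

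Without distended dog 1 the count for graft against control was 87, and without the graft that for distended against control was 0. Leaving out either control leaves no residual degree of freedom and was not run. Shares of mural nuclei kept their direction in every alternative, at -0.435 to -3.49 points for the graft and -0.597 to -3.65 for distended vein with 1 library left out. The mural-specific term was 1 without distended dog 1 and 0 for distended vein without the graft. Libraries of 18 to 39 mural nuclei limit every value here: most listed genes had too few UMIs to test.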
